A study of Homo sapiens with 32 samples.

Results

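Kasumi-1 and SKNO-1 are established lines of acute myeloid leukaemia (AML), both with the t(8;21) translocation that joins RUNX1 to RUNX1T1, and they were compared here without inhibition of the histone demethylase KDM1A. The comparison rests on 16 of the 32 RNA-sequencing libraries of a study of KDM1A inhibitors, chosen by their titles as those given DMSO or GSK690*, which the study's text calls the inactive isomer of the inhibitor GSK690. Each line had 8 such libraries, 4 at 24 h and 4 at 72 h, and each set of 4 held 2 libraries with 0.1% DMSO and 2 with GSK690* at 1 µM. Kasumi-1 was grown in RPMI with 20% fetal calf serum. SKNO-1 was grown in RPMI with 10% fetal calf serum and 10 ng/mL GM-CSF, so line and medium cannot be told apart, and each line stands for 1 patient's leukaemia. The study's text calls the replicates biological, but not whether DMSO and GSK690* libraries with the same number share a culture, so the p-values measure the spread between these libraries. The study's other libraries, which received the inhibitors RN-1 or GSK690, were not compared here.

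The labels hold conflicts that touch the comparison. The authors' table of sample names gives the opposite line for all 8 control libraries at 72 h and for 0 of the 8 at 24 h, and the titles were used. By the titles, a library's log2(FPKM + 1) values correlated with its own line at the other time at a median r of 0.995, and with the opposite line at the other time at a median r of 0.952. The treatment protocol gives 4 days for SKNO-1 where the titles give 72 h, so the later comparison may set 72 h against 4 days. The titles of the DMSO libraries at 24 h also carry a dose of 1 µM, which those at 72 h do not, and they were read as vehicle. The library names also begin differently by time, and 3 of the 4 SKNO-1 libraries at 72 h carry a prefix that no Kasumi-1 library has. Values are FPKM, fragments scaled to transcript length and to the fragments mapped, so levels of different genes are per length. Summed FPKM per library was 336475 to 395945, 10551 to 10821 genes reached 1 FPKM, and read depth is unknown, since read counts were not used here.

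In t(8;21) leukaemia the fusion protein keeps the DNA-binding domain of RUNX1 and recruits corepressors, and the blasts resemble early granulocyte progenitors, often with KIT and CD34 on the surface. GM-CSF binds a receptor made of CSF2RA and the shared beta chain CSF2RB, and signals through JAK2 to STAT5 and ERK. STAT5 switches on feedback inhibitors and survival genes such as CISH, SOCS2 and PIM1.

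The lines differed at most expressed genes, and mostly alike at both times. A gene was called where its log2(FPKM + 1) differed at an adjusted p under 0.05 by limma with Benjamini-Hochberg adjustment, and differences are Kasumi-1 minus SKNO-1 on that scale, which understates the change of genes near 1 FPKM or below. Of 11567 genes tested, 3592 were higher and 4479 lower in Kasumi-1 at 24 h (31.1% and 38.7%, 69.8% in all), and 3780 were higher and 4480 lower at 72 h (32.7% and 38.7%, 71.4% in all). The mean over both times was called for 9116 genes (78.8%). The same direction was called at both times for 6922 genes (59.8%), with 3110 higher in Kasumi-1 (26.9%) and 3812 lower (33.0%), while 41 genes were called in opposite directions (0.354%). At least 2-fold on that scale at both times, 836 genes were higher in Kasumi-1 (7.23%) and 937 lower (8.10%). The excess of lower calls depends on scaling: with the median of ratios, 3485 genes were higher and 3431 lower at both times, and 923 and 850 at 2-fold. The median over all tested genes was -0.065 at 24 h and -0.052 at 72 h. The shares called the same way at both times are the background against which the counts of each gene group are read. In bulk RNA, fewer cells of a type and less RNA per cell cannot be told apart.

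**Figure D1:**
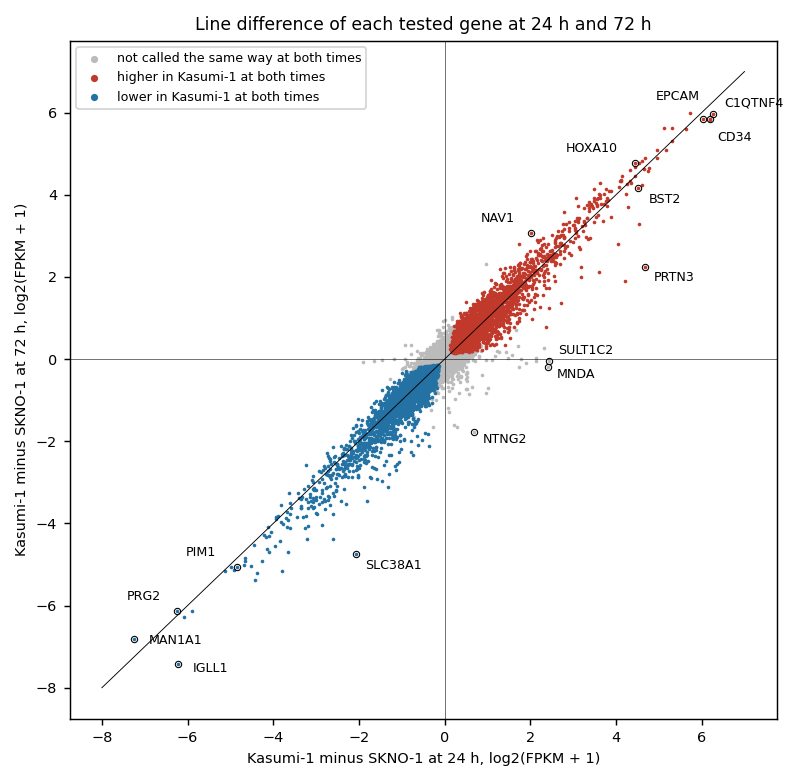
Each point is 1 of the tested genes, with its Kasumi-1 minus SKNO-1 difference in log2(FPKM + 1) at 24 h on the x axis and at 72 h on the y axis. Genes called the same way at both times are coloured (3110 higher and 3812 lower in Kasumi-1) and lie along the diagonal, and the named genes are the extremes and those whose difference changed most with time.

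The widest differences ran from surface receptors to RNA-binding proteins. CD34, the classic stem and progenitor surface antigen (chr1:208057593-208084747, hg19, as are all gene loci here), had 63.9, 71.0, 79.1 and 91.8 FPKM in Kasumi-1 at 24 h, against 0.117, 0.134, 0.177 and 0.260 in SKNO-1. At 72 h it had 68.6, 78.3, 83.6 and 105 FPKM in Kasumi-1, against 0.250, 0.405, 0.573 and 0.680 in SKNO-1. The groups lay far apart at both times, with differences of 6.03 (SE 0.11) and 5.84 (SE 0.11) and adjusted p of 4.93e-15 and 5.44e-15. EPCAM, an epithelial adhesion molecule (chr2:47572296-47614740), had 72.9 ± 8.58 FPKM in Kasumi-1 and 0.00539 ± 0.0108 in SKNO-1 at 24 h (SD, n = 4 each). At 72 h EPCAM had 64.3 ± 3.51 FPKM in Kasumi-1 and 0.129 ± 0.0881 in SKNO-1, and it was the only epithelial gene among the adherent-cell markers that passed the filter on low values.

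Among the 14 genes highest in Kasumi-1 were the myeloid lectin-like receptor CLEC5A (93.4 FPKM in Kasumi-1 and 0.289 in SKNO-1 at 24 h), the inhibitory receptor VSTM1 (48.5 in Kasumi-1, listed at 0 in every SKNO-1 library at 24 h) and the secreted protein C1QTNF4 (85.6 in Kasumi-1 and 0.116 in SKNO-1). IGF2BP3, an RNA-binding protein of fetal tissue and tumours (chr7:23349827-23510086), had 35.0 ± 1.51 FPKM in Kasumi-1 and 0.0518 ± 0.0525 in SKNO-1 at 72 h. LIN28B, which blocks the maturation of let-7 microRNAs, had 8.77 ± 0.914 FPKM in Kasumi-1 and 0.00799 ± 0.00928 in SKNO-1 at the same time. Each of these 5 genes was called at both times without overlap between the lines. This was a condition for any gene among the 14 highest, so it is no result for them. Of all tested genes, 53.6% did not overlap at both times.

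SKNO-1 had its own set of near-exclusive genes. MAN1A1, a Golgi mannosidase that trims N-glycans (chr6:119498373-119670926), had 0.189, 0.238, 0.278 and 0.302 FPKM in Kasumi-1 at 24 h, against 178, 188, 193 and 197 in SKNO-1, a difference of -7.24 (SE 0.066) with adjusted p = 8.96e-18. CLEC12A, a lectin receptor used to mark leukaemic blasts (chr12:10103914-10148293), had 0.319 to 0.634 FPKM in Kasumi-1, against 91.6 to 110.4 in SKNO-1 at 24 h. IGLL1, a surrogate light chain of early B cells, had 0.403 to 0.579 FPKM in Kasumi-1, against 206 to 281 in SKNO-1 at 72 h. The intermediate filament gene VIM, present in most blood cells, had 0.170 ± 0.0425 FPKM in Kasumi-1 and 40.7 ± 8.46 in SKNO-1 at 24 h, and 0.490 ± 0.273 in Kasumi-1 and 52.5 ± 12.7 in SKNO-1 at 72 h (SD, n = 4 each). The lines did not overlap for any of these 4 genes at either time, which was a condition for any gene among the 14 lowest.

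**Figure D2:**
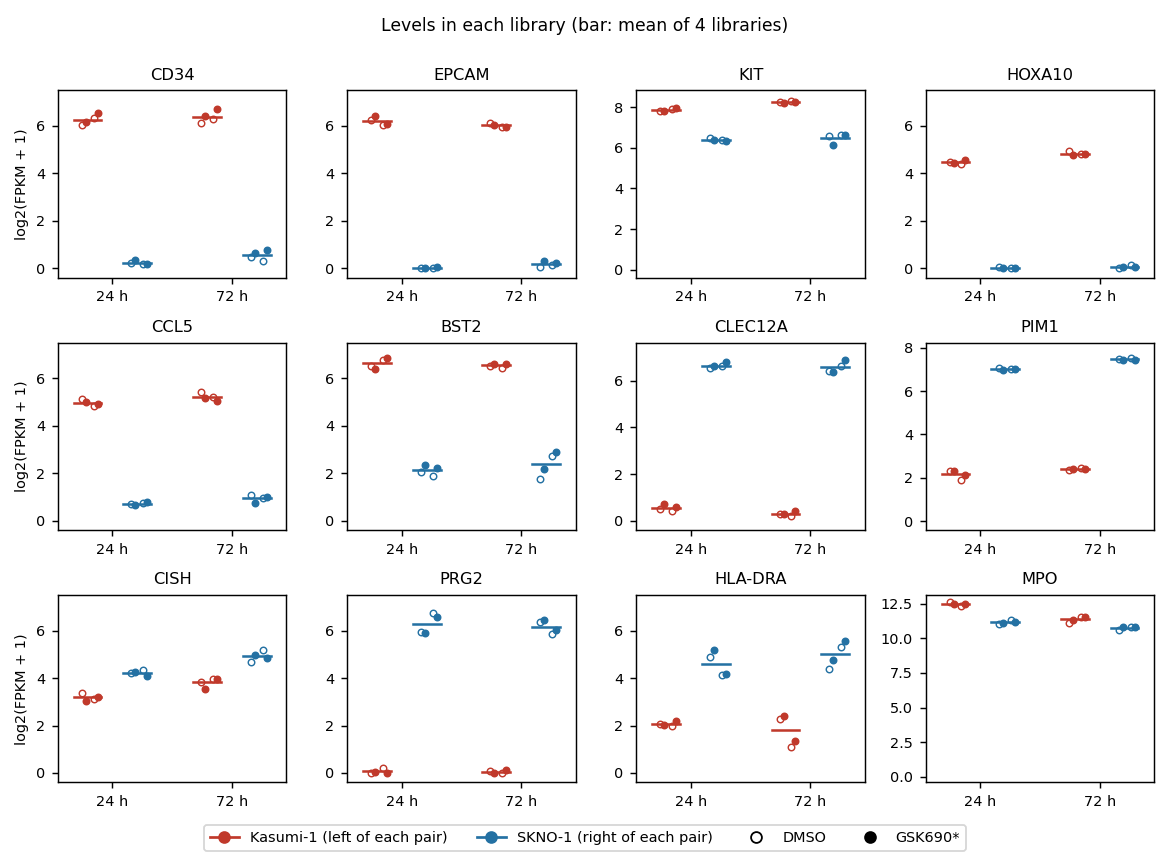
Values of 12 genes in each of the 16 libraries as log2(FPKM + 1) on the y axis, with Kasumi-1 left of SKNO-1 at 24 h and at 72 h, open points for DMSO, filled points for GSK690* and a bar at the mean of 4. CD34 is near 6 in Kasumi-1 and near 0 in SKNO-1, CLEC12A is the reverse, PIM1 is lower in Kasumi-1 but above 0, and KIT and MPO lie high in both lines with Kasumi-1 above.

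The genes of the fusion itself were expressed in both lines. RUNX1T1, a corepressor gene that normal myeloid cells barely express (chr8:92967202-93115514), had 39.0 ± 1.25 FPKM in Kasumi-1 and 24.4 ± 0.606 in SKNO-1 at 24 h, and 49.7 ± 2.57 in Kasumi-1 and 27.6 ± 4.76 in SKNO-1 at 72 h (SD, n = 4 each). Its differences were 0.65 (SE 0.089) and 0.84 (SE 0.089), with adjusted p of 1.36e-05 and 9.19e-07. RUNX1, whose reads mix the intact and the fused gene, differed by only 0.22 and 0.34 (adjusted p = 0.0147 and 8.20e-04), with 61.1 FPKM in Kasumi-1 and 52.3 in SKNO-1 at 24 h. The 24 h call on RUNX1 was lost in DMSO libraries alone (0.20, adjusted p = 0.110), without the SKNO-1 DMSO library numbered 2 (adjusted p = 0.0521) and without the Kasumi-1 GSK690* library numbered 2 (adjusted p = 0.0508). KDM1A itself has a value in only 2 of the 8 Kasumi-1 libraries, at 69.7 FPKM at 24 h and 75.1 at 72 h, and in 5 of the 8 SKNO-1 libraries, at 68.7 and 70.1 FPKM at 24 h and 80.4, 82.2 and 85.1 at 72 h. The other cells of its row hold no value and the gene was not fitted.

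Of 15 tested genes known to be high in t(8;21) leukaemia, 5 were higher and 7 lower in Kasumi-1 at both times (medians -0.12 and 0.013), against 26.9% higher and 33.0% lower of all tested genes. TRH, a hypothalamic hormone precursor that marks this leukaemia, had 173 to 198 FPKM in Kasumi-1, against 6.26 to 7.41 in SKNO-1 at 24 h. SPARC, a matrix glycoprotein, had 208 to 241 FPKM in Kasumi-1, against 37.3 to 48.0 in SKNO-1. PRAME, a cancer-testis antigen, went the other way, with 2.59 to 2.99 FPKM in Kasumi-1, against 64.6 to 73.3 in SKNO-1, and so did IL5RA, the alpha chain of the interleukin 5 receptor, with 0 to 0.0505 in Kasumi-1, against 19.0 to 27.8 in SKNO-1. RUNX1 and RUNX1T1 thus differed by less than 2-fold, and TRH, PRAME and IL5RA by much more.

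Progenitor genes were divided between the lines about as all tested genes were. Of 20 tested stem and progenitor genes, 7 were higher and 6 lower in Kasumi-1 at both times (medians -0.091 and 0.012), near the 26.9% and 33.0% of all tested genes. KIT, the stem cell factor receptor (chr4:55524084-55606881), had 223, 228, 240.3 and 249 FPKM in Kasumi-1 at 24 h, against 78.7, 81.5, 84.1 and 87.3 in SKNO-1, a difference of 1.49 (SE 0.086) with adjusted p = 1.30e-09. At 72 h KIT had 290.4 to 319 FPKM in Kasumi-1, against 69.8 to 97.7 in SKNO-1. The lines did not overlap, but both expressed KIT strongly. BAALC, a cytoplasmic protein high in immature blasts, had 22.6 to 32 FPKM in Kasumi-1, against 1.52 to 2.41 in SKNO-1 at 24 h.

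CD38, an ectoenzyme gained as CD34-positive progenitors mature, had 0.921, 1.38, 1.95 and 2.16 FPKM in Kasumi-1 at 24 h, against 49.8, 51.6, 51.6 and 56.0 in SKNO-1. GATA2, a zinc-finger factor of stem, mast and eosinophil cells (chr3:128198269-128212028), had 5.32 to 7.16 FPKM in Kasumi-1, against 30.9 to 46.0 in SKNO-1, with differences of -2.39 at 24 h and -2.87 at 72 h. TAL1, the stem cell and erythroid basic helix-loop-helix factor, had 0.368 to 0.679 FPKM in Kasumi-1, against 7.19 to 9.03 in SKNO-1. Kasumi-1 was thus CD34-high and CD38-low at the RNA level, and SKNO-1 the reverse, with GATA2 and TAL1 higher in SKNO-1. FLT3, a receptor kinase of early progenitors, was lower in Kasumi-1 at 24 h (-0.99, adjusted p = 1.11e-04), while at 72 h its difference of -0.24 did not pass (adjusted p = 0.224), though it did without the Kasumi-1 DMSO library numbered 1 (-0.40, adjusted p = 0.0484).

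HOXA genes, homeobox factors that keep progenitors immature and are high in many other kinds of AML, were expressed in Kasumi-1 and nearly absent in SKNO-1. Of the 33 HOX genes and cofactors listed, 8 passed the filter, and the 6 HOX genes among them entered through Kasumi-1, so their count of 7 higher and 1 lower with PBX2 and MEIS2 describes those 8 alone. HOXA10 (chr7:27210209-27219880) had 19.9, 20.5, 21.3 and 22.5 FPKM in Kasumi-1 at 24 h, against 0, 0, 0.0197 and 0.0407 in SKNO-1. HOXA5 (chr7:27180670-27183287) had 9.54 to 12.2 FPKM in Kasumi-1, against 0 to 0.0219 in SKNO-1. MEIS2, a HOX cofactor (chr15:37181405-37393504), was the exception, with 5.80 to 8.23 FPKM in Kasumi-1, against 23.1 to 30.1 in SKNO-1.

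Most genes in a list of the GM-CSF receptor and its STAT5 and ERK feedback were lower in Kasumi-1, the line grown without GM-CSF. The ERK feedback genes among them went in both directions. Of 36 tested, 5 were higher and 23 lower at both times, against a background of 26.9% and 33.0%, with medians of -0.50 and -0.52. IL2RA passed the filter on low values through SKNO-1, so the counts describe the 36 tested of 40 listed. PIM1, a STAT5-induced survival kinase (chr6:37137978-37143202), had 2.77, 3.38, 3.92 and 3.95 FPKM in Kasumi-1 at 24 h, against 125, 127, 129 and 133 in SKNO-1. At 72 h PIM1 had 4.12, 4.29, 4.38 and 4.52 FPKM in Kasumi-1, against 172, 173, 177 and 185 in SKNO-1. Its difference of -4.85 (SE 0.079) at 24 h (adjusted p = 2.45e-15) was the widest of the list. IL2RA, the alpha chain of the interleukin 2 receptor and a STAT5 target, had 0.0103 to 0.0527 FPKM in Kasumi-1, against 8.20 to 14.4 in SKNO-1 at 72 h. PTPN6, the phosphatase SHP-1 that dampens cytokine receptors, had 6.95 to 8.97 FPKM in Kasumi-1, against 49.3 to 59.6 in SKNO-1 at 24 h, and the cytokine OSM had 0.307 to 0.401 in Kasumi-1, against 3.05 to 3.61 in SKNO-1.

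Receptor chains and feedback inhibitors differed less. CSF2RB had 4.52 to 5.47 FPKM in Kasumi-1, against 12.4 to 15.8 in SKNO-1 at 24 h (-1.34, adjusted p = 4.62e-09). CSF2RA, which lies where X and Y share sequence, had 1.90 to 2.59 FPKM in Kasumi-1, against 3.98 to 4.59 in SKNO-1 (-0.70, adjusted p = 9.00e-06). SOCS2, a feedback inhibitor, had 12.5 to 15 FPKM in Kasumi-1, against 51.8 to 61.8 in SKNO-1. The 5 genes higher in Kasumi-1 were SPRED1, SPRED2 and DUSP6, which restrain ERK signalling, BCL6, a repressor that STAT5 opposes, and the adaptor SH2B3. SPRY1 and SPRY2, which also restrain ERK signalling, differed by -0.58 and -1.13 and by -0.0063 and -0.13. The 24 h call on SPRED2 (0.25) was lost in DMSO libraries alone (adjusted p = 0.0698) and without any 1 of 3 libraries, the Kasumi-1 DMSO library (adjusted p = 0.0779), the SKNO-1 DMSO library (0.0709) or the SKNO-1 GSK690* library (0.0713) numbered 1. DUSP6 had 55.2 to 64.1 FPKM in Kasumi-1, against 20.2 to 25.6 in SKNO-1.

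CISH, the STAT5-induced cytokine feedback inhibitor (chr3:50643920-50649262), had 7.15, 7.64, 8.28 and 9.45 FPKM in Kasumi-1 at 24 h, against 16.0, 17.6, 18.0 and 19.2 in SKNO-1, with differences of -1.04 (SE 0.12) and -1.10 (SE 0.12) at the 2 times (adjusted p = 2.02e-06 and 1.03e-06). The 250 bases before its start are shown with those of BCL6, which differed the other way (0.88 and 0.99), since both hold the STAT motif TTCNNNGAA, printed in capitals. Sequences are RefSeq's on GRCh38.p14, read 5′ to 3′ on the minus strand for both genes.
CISH, chr3:50611775-50612024: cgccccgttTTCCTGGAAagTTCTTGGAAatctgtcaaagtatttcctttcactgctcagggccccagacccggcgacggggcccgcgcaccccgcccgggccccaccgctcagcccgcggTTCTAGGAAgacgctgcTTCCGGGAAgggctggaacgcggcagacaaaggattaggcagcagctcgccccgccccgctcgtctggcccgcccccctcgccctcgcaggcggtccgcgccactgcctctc
BCL6, chr3:187745469-187745718: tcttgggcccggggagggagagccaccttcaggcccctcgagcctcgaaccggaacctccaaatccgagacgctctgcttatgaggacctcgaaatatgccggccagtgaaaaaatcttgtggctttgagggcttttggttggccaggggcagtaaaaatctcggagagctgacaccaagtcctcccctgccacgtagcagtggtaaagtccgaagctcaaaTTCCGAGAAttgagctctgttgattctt
The window of CISH holds 4 matches and that of BCL6 holds 1. The motif reads the same on both strands, and 5.66% of the 9360 promoters matched to tested genes hold it, as do 3 of the 26 matched in the list, the third being EGR1, an immediate early gene.

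Genes of eosinophils, basophils and mast cells were lower in Kasumi-1. Of 25 listed, 16 were tested, and 14 were lower and 1 higher at both times (medians -1.18 and -1.55), against 33.0% and 26.9% of all tested genes. PRG2, CPA3 and ALOX5 passed the filter on low values through SKNO-1, so the counts and medians describe the 16 tested alone. The summed FPKM of the tested list was 51.2 to 53.9 in Kasumi-1 and 136 to 189 in SKNO-1 at 24 h. The 1 higher gene, SLC18A2, made up most of the Kasumi-1 sum, and PRG2 a large part of the SKNO-1 sum. PRG2, the eosinophil granule major basic protein (chr11:57154266-57158130), had 0.0277 and 0.167 FPKM in 2 of the 4 Kasumi-1 libraries at 24 h and values indistinguishable from 0 in the other 2, against 58.5, 61.3, 95.7 and 107 in SKNO-1. At 72 h PRG2 had at most 0.0783 FPKM in Kasumi-1, against 56.9 to 87.0 in SKNO-1. CPA3, the mast cell carboxypeptidase, had 0.0921 to 0.133 FPKM in Kasumi-1, against 8.53 to 14.9 in SKNO-1, and ALOX5, which starts leukotriene synthesis, had 0.103 to 0.421 in Kasumi-1, against 7.95 to 16.5 in SKNO-1. With IL5RA these genes were at or near 0 in Kasumi-1. SLC18A2, the vesicular monoamine transporter that loads histamine in mast cells and basophils, was the 1 higher gene, with 43.4 to 46.0 FPKM in Kasumi-1, against 4.95 to 6.14 in SKNO-1.

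Neutrophil granule genes did not move as 1 block. Of 21 tested, 8 were higher and 7 lower in Kasumi-1 at both times, against 26.9% and 33.0% of all tested genes. The primary granule proteases led on the Kasumi-1 side, and their difference was smaller at 72 h. PRTN3, proteinase 3 (chr19:840962-848175), had 565, 616, 629.8 and 927 FPKM in Kasumi-1 at 24 h, against 17.0, 22.6, 27.3 and 39.2 in SKNO-1, and 203, 215, 223 and 248 in Kasumi-1, against 31.2, 43.2, 51.9 and 62.0 in SKNO-1 at 72 h. Its difference was 4.67 at 24 h and 2.25 at 72 h, an interaction of -2.42 (SE 0.31) with adjusted p = 5.64e-04. CTSG, cathepsin G, differed by 4.04 at 24 h and 2.81 at 72 h (interaction adjusted p = 0.00394).

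MPO, myeloperoxidase (chr17:56347216-56358296), had 5065, 5532, 5642 and 6237 FPKM in Kasumi-1 at 24 h, against 2108, 2194, 2288 and 2537 in SKNO-1. At 72 h MPO had 2189.6, 2530.1, 2909.8 and 2935 FPKM in Kasumi-1, against 1516, 1771, 1773 and 1809 in SKNO-1, with a difference of 1.30 at 24 h and 0.61 at 72 h (interaction adjusted p = 0.0214). Quantile normalization, which gives each rank the same value in every library, leaves a difference of 0 for MPO at 72 h. ELANE, neutrophil elastase, turned round: it had 250.4 to 353 FPKM in Kasumi-1, against 119.8 to 174 in SKNO-1 at 24 h (0.96, adjusted p = 1.48e-04), and 78.3 to 123 in Kasumi-1, against 127 to 227 in SKNO-1 at 72 h (-0.83, adjusted p = 5.09e-04). Without the 3 SKNO-1 libraries of the separate prefix, the 72 h difference of ELANE was -0.32 and did not pass (adjusted p = 0.199). AZU1, azurocidin, was higher in Kasumi-1 at both times (2.03 and 0.97, with adjusted p = 0.0518 at 72 h in DMSO libraries alone), with no call on the interaction (adjusted p = 0.149).

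On the SKNO-1 side stood CST7, a cysteine protease inhibitor, with 1.37 to 2.37 FPKM in Kasumi-1, against 32.5 to 49.9 in SKNO-1 at 24 h, and CEACAM6, a granulocyte adhesion molecule, with 0.00973 to 0.0295 in Kasumi-1, against 7.31 to 10.4 in SKNO-1. ITGAM, the CD11b integrin chain of mature myeloid cells, was at most 0.826 FPKM in any library, and CEBPA, the granulocyte lineage factor, at most 1.42 FPKM, so neither was tested.

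**Figure D3:**
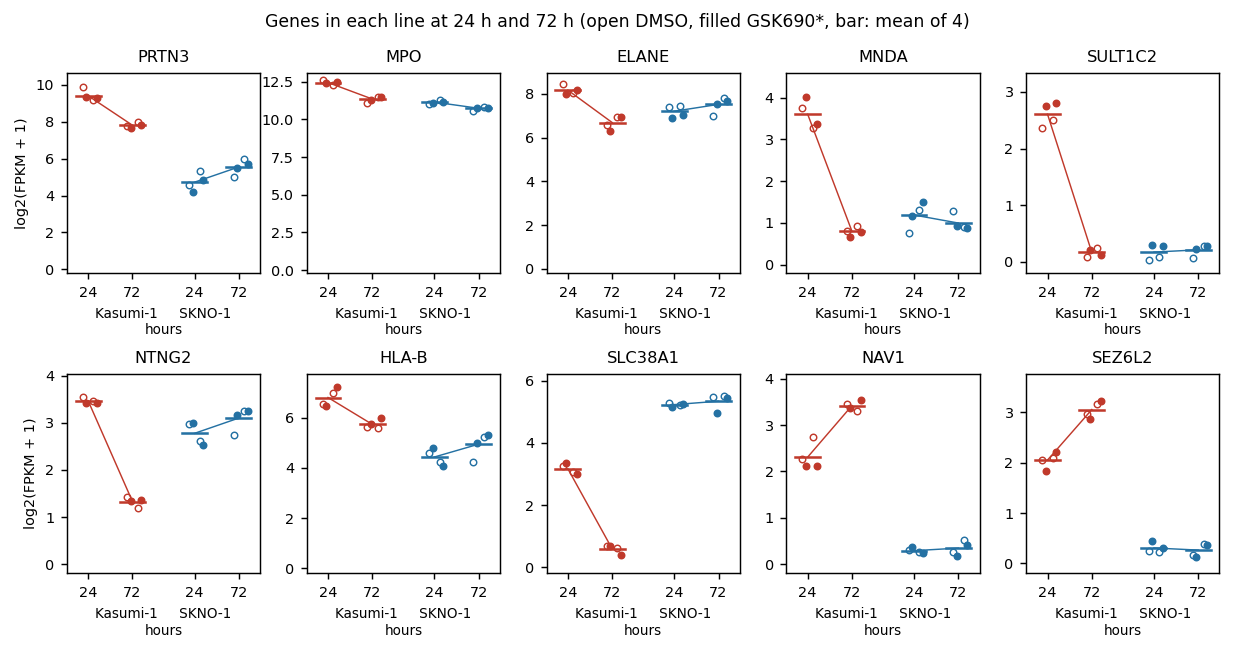
Mean log2(FPKM + 1) of 10 genes at 24 h and 72 h in Kasumi-1 (left in each panel) and SKNO-1 (right), with the 4 libraries of each set as points and lines joining the means. PRTN3, MPO, ELANE, MNDA, SULT1C2, NTNG2 and HLA-B are lower at 72 h than at 24 h in Kasumi-1, SLC38A1 is far lower there, and NAV1 and SEZ6L2 are higher.

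The difference between the lines changed with time for 563 genes (4.87% of those tested), with 221 interactions positive (1.91%) and 342 negative (2.96%), and 2 positive and 73 negative ones reached 2-fold (0.0173% and 0.631%). Without the 3 SKNO-1 libraries of the separate prefix the split turned round, to 260 positive and 175 negative, and it was 158 and 385 with the median of ratios and 1 and 42 with DMSO libraries alone. This count is unstable, so single genes are read from their libraries. In all it was 43 with DMSO libraries alone and 111 with DMSO and GSK690* libraries of the same number averaged, and leaving out 1 library moved it past 1.5 times for 10 of the 16. Those were every Kasumi-1 library at 72 h (278 to 363 genes), the Kasumi-1 libraries at 24 h numbered 1 (235 and 249), the SKNO-1 libraries at 24 h other than GSK690* numbered 1 (216, 287 and 292) and the SKNO-1 GSK690* library at 72 h numbered 2 (1225). SLC38A1, a glutamine transporter (chr12:46576845-46663800), had 6.96, 7.30, 8.60 and 9.32 FPKM in Kasumi-1 at 24 h and 0.300, 0.542, 0.594 and 0.611 at 72 h, while SKNO-1 had 34.7 to 37.8 at 24 h and 29.9 to 44.9 at 72 h. The interaction was -2.69 (SE 0.16) with adjusted p = 7.86e-07. MNDA, a nuclear antigen of maturing myeloid cells, had 8.67 to 15.2 FPKM in Kasumi-1, against 0.704 to 1.83 in SKNO-1 at 24 h, and 0.597 to 0.908 in Kasumi-1, against 0.834 to 1.42 in SKNO-1 at 72 h, where the lines overlapped. SULT1C2, a sulfotransferase, followed the same course, with 4.15 to 6.0 FPKM at 24 h and 0.0609 to 0.190 at 72 h in Kasumi-1 and at most 0.224 in SKNO-1. NTNG2, a membrane-anchored netrin, turned round, with 9.73 to 10.8 FPKM in Kasumi-1, against 4.82 to 6.95 in SKNO-1 at 24 h, and 1.28 to 1.69 in Kasumi-1, against 5.70 to 8.58 in SKNO-1 at 72 h.

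Positive interactions were smaller. NAV1, a neuron navigator protein, differed by 2.02 at 24 h and 3.08 at 72 h, with 8.95 to 10.7 FPKM in Kasumi-1, against 0.132 to 0.445 in SKNO-1 at the later time. SEZ6L2, a neuronal membrane protein, differed by 1.74 and 2.79, and EDIL3, a secreted integrin ligand, by 1.29 and 2.20. SRRM2, a splicing scaffold with a long transcript, differed by -0.031 at 24 h (adjusted p = 0.824) and 0.92 at 72 h (adjusted p = 5.22e-06). Time goes with the prefix of the library names, and the 2 cannot be told apart in any of these genes. SEZ6L2 and SRRM2 lie on 16p, the short arm of chromosome 16. There the median difference over neighbouring genes was also larger at 72 h, as given below, but it changed by less than SEZ6L2 and SRRM2 did. How much of their interactions the neighbours share was not tested.

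Surface antigens used to phenotype AML were nearly all different. Of 33 tested, 13 were higher and 19 lower in Kasumi-1 at both times (medians -0.75 and -0.87), against 26.9% and 33.0% of all tested genes. CD33, the sialic acid lectin targeted in AML therapy (chr19:51728319-51747115), had 20.3, 22.3, 22.8 and 23.8 FPKM in Kasumi-1 at 24 h, against 67.4, 71.1, 72.1 and 72.7 in SKNO-1, a difference of -1.62 (SE 0.069) with adjusted p = 4.17e-11. CD52, the small glycoprotein target of alemtuzumab, had 1.52 to 4.59 FPKM in Kasumi-1, against 25.5 to 33.8 in SKNO-1. CD33 and CD52 were lower in Kasumi-1 without overlap, as CLEC12A and CD38 were, and CD34 and KIT were higher.

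Cytokine receptors had 10 higher and 16 lower of 32 tested, against 26.9% and 33.0% of all tested genes. IL1RAP, the shared subunit of interleukin 1 receptors and a blast antigen, had 5.61 to 6.97 FPKM in Kasumi-1, against 82.0 to 88.2 in SKNO-1 at 24 h, and IL4R had 0.941 to 1.32 in Kasumi-1, against 9.48 to 15 in SKNO-1. CXCR4, the marrow homing receptor, had 0.505 to 0.741 FPKM in Kasumi-1, against 8.92 to 9.22 in SKNO-1 at 72 h. These 3 receptors were lower in Kasumi-1 at both times. CSF3R, the G-CSF receptor, was higher, with 272 to 302 FPKM in Kasumi-1, against 92.5 to 100.5 in SKNO-1.

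Among secreted factors, 10 of 21 tested were higher and 10 lower in Kasumi-1 at both times (26.9% and 33.0% of all tested genes). The chemokine CCL5 had 27.5, 29.5, 31.0 and 33.8 FPKM in Kasumi-1 at 24 h, against 0.569, 0.601, 0.665 and 0.727 in SKNO-1. The inflammasome cytokine IL18 had 9.11 to 11.2 FPKM in Kasumi-1, against 0.424 to 1.06 in SKNO-1. IL1B, also matured by the inflammasome, was the reverse at 0.209 to 0.534 FPKM in Kasumi-1, against 8.14 to 12.2 in SKNO-1. HGF, the ligand of MET, had 0.0342 to 0.123 FPKM in Kasumi-1, against 4.02 to 9.47 in SKNO-1 at 72 h. CCL5 and IL18 thus marked Kasumi-1 and IL1B and HGF marked SKNO-1, without overlap.

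Adhesion and matrix genes were more often higher in Kasumi-1, 17 higher and 12 lower of 37 tested, against 26.9% and 33.0% of all tested genes. CDH2, N-cadherin, had 8.15 to 9.85 FPKM in Kasumi-1, against 0 to 0.0661 in SKNO-1 at 24 h. COL4A5, a basement membrane collagen chain on X (chrX:107683073-107940775), had 12 to 13.9 FPKM in Kasumi-1, against 0 to 0.0888 in SKNO-1. ESAM, an adhesion molecule of stem cells and endothelium, had 12.1 to 15.2 in Kasumi-1, against 0.499 to 0.689 in SKNO-1. ICAM2, a ligand of leukocyte integrins, was lower in Kasumi-1, with 3.17 to 4.47 FPKM, against 31.5 to 38.5 in SKNO-1.

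Of 32 blood transcription factors tested, 8 were higher and 15 lower in Kasumi-1 at both times, against 26.9% and 33.0% of all tested genes. NFE2, an erythroid and megakaryocyte leucine zipper factor, had 0.656 to 0.890 FPKM in Kasumi-1, against 10.7 to 11.7 in SKNO-1 at 24 h. ZBTB16, the PLZF repressor, had 0.582 to 0.871 in Kasumi-1, against 8.99 to 11.8 in SKNO-1, and IKZF2, the Ikaros family member Helios, had 0.262 to 0.566 in Kasumi-1, against 5.51 to 6.96 in SKNO-1. The 8 higher in Kasumi-1 included CEBPD (1.55 and 1.53), IRF7 (1.74 and 1.22), IRF1 (1.20 and 1.47) and IRF8 (1.17 and 1.27).

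SPI1, the PU.1 factor (chr11:47376410-47400127), had 41.5 to 53.3 FPKM in Kasumi-1, against 64.1 to 78.4 in SKNO-1 at 24 h, where the difference was -0.54 (adjusted p = 4.55e-04). GFI1, a repressor that works with the KDM1A complex, had 116 to 135 FPKM in Kasumi-1, against 90.4 to 106 in SKNO-1 (0.37, adjusted p = 6.53e-05). Its paralogue GFI1B was at most 0.617 FPKM in any library and was not tested. Both lines thus expressed SPI1 and GFI1 strongly.

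Class II antigen presentation was lower in Kasumi-1, with 9 lower and 0 higher of 13 tested (medians -1.47 and -1.76). The shares of all tested genes were 33.0% and 26.9%. IFI30 passed the filter on low values through SKNO-1, so the counts describe the 13 tested of 19 listed. HLA-DRA, the alpha chain of HLA-DR (chr6:32407618-32412823), had 2.98, 3.11, 3.17 and 3.52 FPKM in Kasumi-1 at 24 h, against 16.8, 17.1, 29.0 and 35.6 in SKNO-1. CIITA, the class II master regulator, had 0.357 to 0.636 FPKM in Kasumi-1, against 3.88 to 4.89 in SKNO-1. IFI30, a lysosomal thiol reductase that prepares antigen, had at most 0.0359 in Kasumi-1 at 24 h, against 10.9 to 17.5 in SKNO-1. At 72 h IFI30 had 1.31 in the Kasumi-1 GSK690* library numbered 2. HLA-DRB1, whose reads can be shared with near-identical genes, differed by -2.27 and -2.64. HLA-DRA, CIITA and IFI30 were present in SKNO-1 at modest levels and low in Kasumi-1, but the list as a whole was expressed in both lines. Its summed FPKM was 148 to 163 in Kasumi-1 and 261 to 375 in SKNO-1 at 24 h. At 72 h it was 185 to 199 in Kasumi-1 and 313 to 535 in SKNO-1. Further, 4 list members were not called the same way at both times.

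Class I was mixed, with 7 higher and 5 lower of 19, against 26.9% and 33.0% of all tested genes. B2M, the class I light chain on chromosome 15, had 1069.8 to 1275 FPKM in Kasumi-1, against 2013 to 2411 in SKNO-1 at 24 h (-0.92). PSMB8 and PSMB9, catalytic subunits of the immunoproteasome, were higher in Kasumi-1, by 1.29 and 1.15 at 24 h. HLA-B had 87.6 to 147 FPKM in Kasumi-1, against 15.9 to 26.9 in SKNO-1 at 24 h, and 47.1 to 62.0 in Kasumi-1, against 18.0 to 39.2 in SKNO-1 at 72 h. Reads of HLA-B depend on the alleles of each line and can be shared with related genes.

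Of 36 interferon-stimulated genes tested, 14 were higher and 9 lower in Kasumi-1 at both times (medians 0.52 and 0.18). The shares of all tested genes were 26.9% and 33.0%. BST2, tetherin, which holds virions at the membrane (chr19:17513747-17516457), had 82.7, 90.8, 107 and 113 FPKM in Kasumi-1 at 24 h, against 2.67, 3.14, 3.62 and 4.13 in SKNO-1, a difference of 4.50 (SE 0.19) with adjusted p = 3.82e-11. IFITM3, an antiviral membrane protein with near-identical neighbours in its family (chr11:319668-327537), had 75.3 to 111 FPKM in Kasumi-1, against 4.96 to 5.61 in SKNO-1. GBP2, a guanylate-binding protein, and IFIT5, an RNA-binding antiviral protein, went the other way, by -2.34 and -2.13 at 24 h. The list therefore holds wide differences in both directions.

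Some interferon-stimulated genes varied between Kasumi-1 libraries of the same time. IFI6, a mitochondrial antiviral protein, had 18.8, 23.8, 122 and 162 FPKM in Kasumi-1 at 24 h, with both high values in the libraries numbered 2, against 9.09, 9.58, 10.6 and 11.7 in SKNO-1. At 72 h it had 15.8, 17.3, 17.7 and 21.3 in Kasumi-1, against 10.6, 13.8, 17.6 and 18.5 in SKNO-1, where the difference of 0.26 did not pass (adjusted p = 0.668). MX1, a dynamin-like antiviral protein, had 0.991, 3.03, 4.74 and 10.1 FPKM in Kasumi-1 at 24 h, and IFI44L had 0.231, 1.24, 1.41 and 3.32, while IFI44L was listed at 0 in all 8 SKNO-1 libraries. BST2 and IFITM3 did not share this spread.

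The promoters of BST2, IFITM3 and IFI44L are shown for the interferon response element, searched as GAAANNGAAA and its reverse complement TTTCNNTTTC and printed in capitals. Each is the 250 bases before the gene start from RefSeq on GRCh38.p14, 5′ to 3′, on the minus strand for BST2 and IFITM3 and the plus strand for IFI44L.
BST2, chr19:17405631-17405880: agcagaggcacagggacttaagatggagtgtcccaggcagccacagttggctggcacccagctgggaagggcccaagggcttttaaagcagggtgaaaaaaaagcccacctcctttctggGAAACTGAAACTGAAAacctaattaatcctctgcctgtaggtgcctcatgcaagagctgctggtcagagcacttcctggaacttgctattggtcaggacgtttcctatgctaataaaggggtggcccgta
IFITM3, chr11:320861-321110: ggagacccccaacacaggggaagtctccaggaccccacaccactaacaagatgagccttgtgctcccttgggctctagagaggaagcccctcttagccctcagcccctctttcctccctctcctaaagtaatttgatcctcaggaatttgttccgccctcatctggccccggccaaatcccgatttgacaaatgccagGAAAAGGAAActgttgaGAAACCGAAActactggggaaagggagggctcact
IFI44L, chr1:78620198-78620447: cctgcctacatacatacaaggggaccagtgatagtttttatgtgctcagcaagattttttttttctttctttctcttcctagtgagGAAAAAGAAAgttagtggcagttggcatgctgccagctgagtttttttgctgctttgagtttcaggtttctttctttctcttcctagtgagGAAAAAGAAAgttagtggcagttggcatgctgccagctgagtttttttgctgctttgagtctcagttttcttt
Each of the 3 windows holds 2 matches, and those of BST2 overlap. The element was found in 15 of the 27 matched promoters of the list (55.6%) and in 2.38% of all 9360. Promoters with a match belong to genes higher in Kasumi-1, such as BST2, and to genes lower there, such as IFIT5, and a match is a description of letters only.

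Genes of the p53 response and the BCL2 family were more often lower in Kasumi-1, 14 lower and 4 higher of 32 tested (medians -0.28 and -0.37). The shares of all tested genes were 33.0% and 26.9%. ZMAT3, a p53-induced RNA-binding protein (chr3:178735010-178790067), had 0.909, 0.969, 1.13 and 1.29 FPKM in Kasumi-1 at 24 h, against 11.6, 11.6, 13.8 and 14 in SKNO-1. BTG2, a p53-induced inhibitor of proliferation, had 0.0330 to 0.0388 FPKM in Kasumi-1, against 3.6 to 6.25 in SKNO-1. TP53I3, another p53 target, was higher at 10.00 to 12 FPKM in Kasumi-1, against 2.58 to 3.15 in SKNO-1. CDKN1A, the p21 inhibitor of cyclin-dependent kinases, was low in both lines, with 0.371 to 0.524 FPKM in Kasumi-1, against 1.79 to 3.12 in SKNO-1, and differed by -1.21.

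A list of D cyclins, cyclin-dependent kinases, their inhibitors, RB and E2F genes and MTAP had 10 lower and 1 higher of 16 tested. The shares of all tested genes were 33.0% and 26.9%. CCND2, cyclin D2 (chr12:4382937-4414516), had 4.72 to 5.85 FPKM in Kasumi-1, against 15.9 to 16.8 in SKNO-1. MTAP, the methylthioadenosine phosphorylase that lies beside the CDKN2A locus (chr9:21802541-21931646), had 7.86 to 11.9 FPKM in Kasumi-1, against 24.1 to 26.6 in SKNO-1, so both lines expressed it. Proliferation genes themselves were close, with 7 higher and 11 lower of 36 and medians of -0.11 and -0.057 (0.0016 at 72 h under quantile normalization), though FOXM1, a mitotic transcription factor on 12p (chr12:2966846-2986206), differed by -1.80 and -1.70.

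Metabolic genes held a few near-exclusive members. ASS1, which makes argininosuccinate on the way to arginine (chr9:133320315-133376661), had 23.5, 26.1, 27.6 and 30.9 FPKM in Kasumi-1 at 24 h, against 0.259, 0.308, 0.396 and 0.627 in SKNO-1. PYCR1, which makes proline (chr17:79890259-79900288), was the reverse, with 0, 0.0523, 0.0819 and 0.156 FPKM in Kasumi-1, against 21.1, 23.7, 24.2 and 25.5 in SKNO-1. The amino acid and ATF4 list as a whole had 10 higher and 14 lower of 35, near the background. CBS, of cysteine synthesis, differed by -2.51 and -2.56. Glycolysis and hypoxia genes had 7 higher and 9 lower of 33. PFKM, the muscle form of phosphofructokinase, had 0.741 to 1.5 FPKM in Kasumi-1, against 31.2 to 39.2 in SKNO-1, and ALDOC, the brain form of aldolase, had 9.90 to 12.6 in Kasumi-1, against 0.837 to 1.51 in SKNO-1.

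Cholesterol and fatty acid synthesis was lower in Kasumi-1 by small steps. Of 33 tested, 22 were lower and 4 higher at both times (medians -0.38 and -0.34), but 1 gene in each direction reached 2-fold at both times. MSMO1, a sterol oxidase, had 13.2 to 20.3 FPKM in Kasumi-1, against 32.3 to 40.2 in SKNO-1 at 24 h, and MVK, mevalonate kinase, had 4.03 to 5.93 in Kasumi-1, against 9.89 to 10.6 in SKNO-1. TM7SF2, a sterol reductase, stood against the list with 30.8 to 35.1 FPKM in Kasumi-1, against 6.14 to 6.98 in SKNO-1, and ABCG1, a sterol exporter, was lower by -3.35. The media also differ in serum, which carries cholesterol, and line and serum cannot be told apart.

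Lysosomal genes had 13 higher and 8 lower of 27, against 26.9% and 33.0% of all tested genes. TPP1, tripeptidyl peptidase, on 11p (chr11:6633999-6640692), had 49.97 to 57.5 FPKM in Kasumi-1, against 8.55 to 8.96 in SKNO-1. CTSH, cathepsin H, was lower, with 2.35 to 3.56 FPKM in Kasumi-1, against 22.8 to 30.7 in SKNO-1. Genes of drug transport and detoxification had 7 higher and 9 lower of 25, near the shares of all tested genes. ABCB1, the P-glycoprotein efflux pump, had 1.88 to 3.43 FPKM in Kasumi-1, against 0.00963 to 0.0627 in SKNO-1 at 72 h. ABCC1, a glutathione conjugate pump, had 65.9 to 70.5 in Kasumi-1, against 20.9 to 21.9 in SKNO-1.

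Chromatin regulators, with 19 higher and 10 lower of 48 tested (26.9% and 33.0% of all tested genes), held a few wide differences. HDAC9, a class IIa histone deacetylase (chr7:18126571-19036993), had 6.53 to 7.34 FPKM in Kasumi-1, against 0.0402 to 0.179 in SKNO-1 at 24 h. TET1, a methylcytosine dioxygenase, had 9.47 to 11 FPKM in Kasumi-1, against 2.69 to 3.45 in SKNO-1, and DNMT3A, a de novo DNA methyltransferase, had 33.1 to 35.0 in Kasumi-1, against 14.4 to 15.7 in SKNO-1. GSE1, a partner of the KDM1A complex, was lower, with 4.37 to 6.71 FPKM in Kasumi-1, against 20.5 to 23.1 in SKNO-1. Signalling enzymes had 20 higher and 14 lower of 46, in which PRKCB, a protein kinase C, differed by 1.87 and 2.07.

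**Figure D4:**
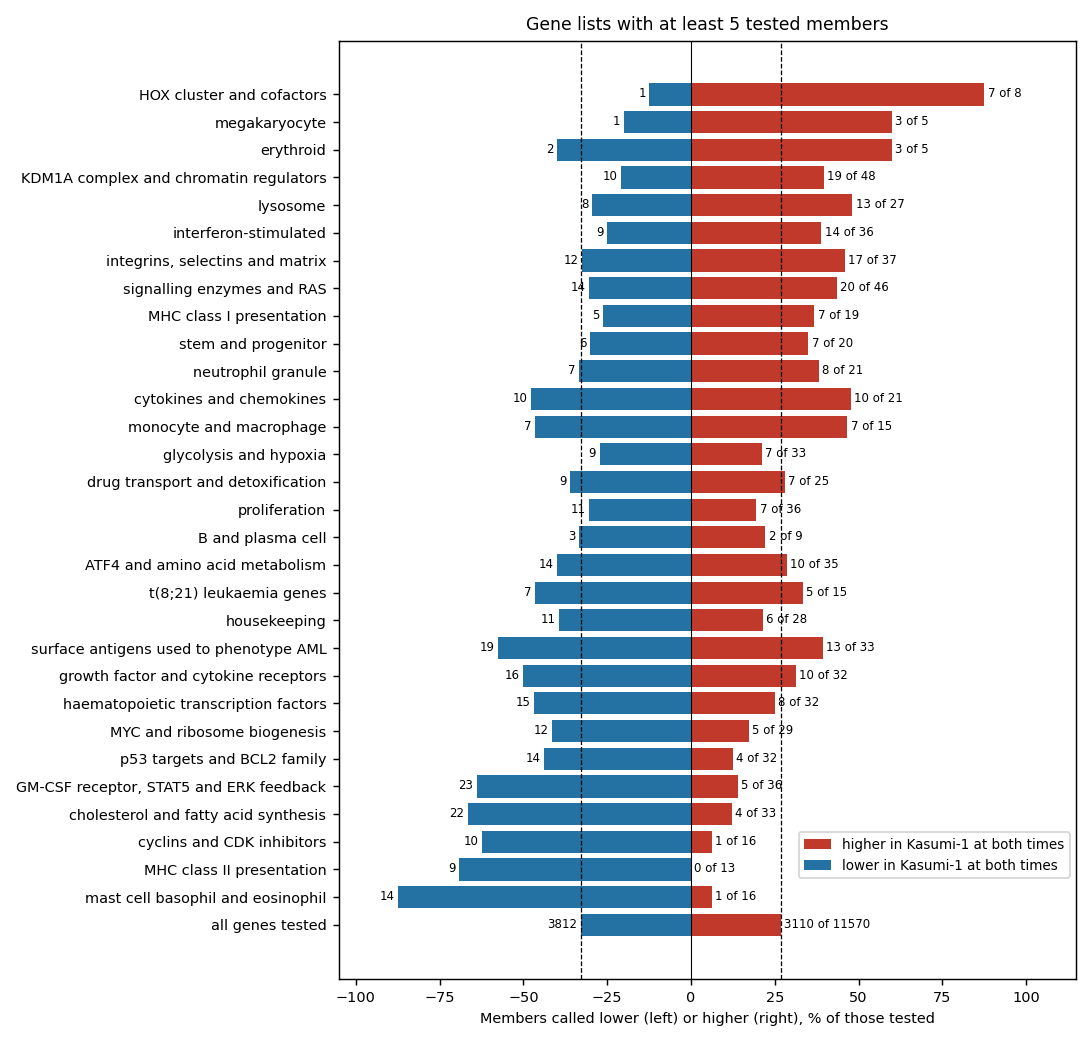
For each gene list with at least 5 tested members, the percentage of its tested members called higher (right of 0) and lower (left of 0) in Kasumi-1 at both times, with the counts of members called and tested. The bottom bar and dashed lines give the same over all tested genes, 26.9% higher and 33.0% lower. Among these lists, mast cell, basophil and eosinophil genes and class II presentation reach farthest to the left.

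Some genes were expressed in 1 line alone. By the rule of at least 5 FPKM in all 8 libraries of one line and under 0.5 FPKM in all 8 of the other, 74 genes belonged to Kasumi-1 alone and 48 to SKNO-1 alone. Of the 74, 17 lie on the X chromosome (22.97%), against 0 of the 48 and 3.35% of all tested genes. The 17 include TCEAL4 (chrX:102831158-102842657), a transcription elongation factor-like protein with 35.2 to 40.6 FPKM in Kasumi-1 and listed at 0 in all 4 SKNO-1 libraries at 24 h, and MAGED1, an adaptor of the MAGE family with 26.8 to 35.4 in Kasumi-1 and also listed at 0 in SKNO-1 at 24 h (mean 0.103 at 72 h). They also include the actin bundler PLS3, with 21.2 to 22.9 FPKM in Kasumi-1, against 0 to 0.183 in SKNO-1. A further 11 of the 74 lie on chromosome 7, HOXA5, HOXA10, IGF2BP3 and HDAC9 among them. Chromosome 7 holds 403 of the 8618 genes with a mean of at least 5 FPKM.

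SNURF (chr15:25200132-25245423) is part of an imprinted transcript expressed from the paternal copy. It had 0, 0.0389, 0.0475 and 0.0708 FPKM in Kasumi-1 at 24 h, against 58.0, 60.6, 61.4 and 62.0 in SKNO-1. SNRPN, which shares that locus and some of its reads, had a mean indistinguishable from 0 in Kasumi-1 at 24 h, against 9.87 to 13.5 FPKM in SKNO-1. At 72 h it had at most 0.150 FPKM in Kasumi-1, against a mean of 9.3 in SKNO-1. SLFN11, a DNA damage response helicase whose level tracks response to some DNA-damaging drugs, had 0.00482 to 0.0421 FPKM in Kasumi-1, against 16.1 to 18.3 in SKNO-1. GRB10, an adaptor of insulin signalling and also imprinted, had 0.0133 to 0.0436 in Kasumi-1, against 23.4 to 26.2 in SKNO-1. These 122 genes were chosen by their levels, so their separation is a description.

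Differences were also ordered along the chromosomes. The 8618 genes with a mean of at least 5 FPKM were cut into 205 consecutive windows of 40 to 51 genes. In 124 windows the median difference was under 0.2 in size at both times, while in 12 it was at or below -0.6 at both times and in 8 at or above 0.6. In 7 windows at least 90% of the genes were lower in Kasumi-1 at both times, and in 5 at least 90% were higher. The first window of chromosome 7 (chr7:588833-6866401, 41 genes) had all 41 genes lower at both times and all 41 called, with medians of -1.15 at 24 h and -1.11 at 72 h.

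Other low windows lay at the start of chromosome 15 (chr15:22833394-41048049, 43 of 46 genes lower at both times, medians -1.22 and -1.07), on 3q (chr3:169804519-184402546, 40 of 41 lower, medians -1.03 and -1.01), on 13q (chr13:20207787-41384247, 49 of 51 lower, medians -1.02 and -0.93), on 12p (chr12:389294-7261869, 40 of 43 lower, medians -0.97 and -0.92) and on 9p (chr9:121040-33920402, 42 of 43 lower, medians -0.93 and -0.95). High windows lay on 2q (chr2:191511471-204301606, 33 of 40 higher, medians 1.04 and 1.06), on chromosome 4 (chr4:41992488-74124515, 29 of 43 higher, medians 0.86 and 1.17), on 11p (chr11:167783-5634188, 40 of 43 higher, medians 1.05 and 0.95), on 17q (chr17:27030214-34207797, 40 of 43 higher, medians 0.93 and 0.96) and at the end of chromosome 7 (chr7:142941185-158622944, 39 of 40 higher, medians 0.79 and 0.89). Over whole chromosomes, chromosome 10 was high at both times (medians 0.41 and 0.41, 81.7% of 333 genes higher on the mean of both times), and chromosome 16 had medians of 0.19 and 0.42. SRRM2, ABCC1 and SEZ6L2 lie in 16p windows with larger medians at 72 h. These were 0.40 and 0.78 (chr16:2009508-3767598), 0.40 and 0.80 (chr16:16043433-27561234) and 0.51 and 0.83 (chr16:28109299-30457502). On 16q, chr16:67143860-70285833 had -0.18 and -0.22. What set 16p apart at 72 h was not tested. Chromosomes 9, 13 and 15 had low medians (-0.27 and -0.30, -0.34 and -0.25, and -0.31 and -0.32), but these mix the low windows above with flatter ones. Flatter windows were chr9:72324437-99145992 (-0.12 and -0.12), chr13:41506055-61148012 (-0.15 and -0.047) and chr15:64979771-75135687 (-0.076 and -0.069). No measurement of DNA was used here.

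**Figure D5:**
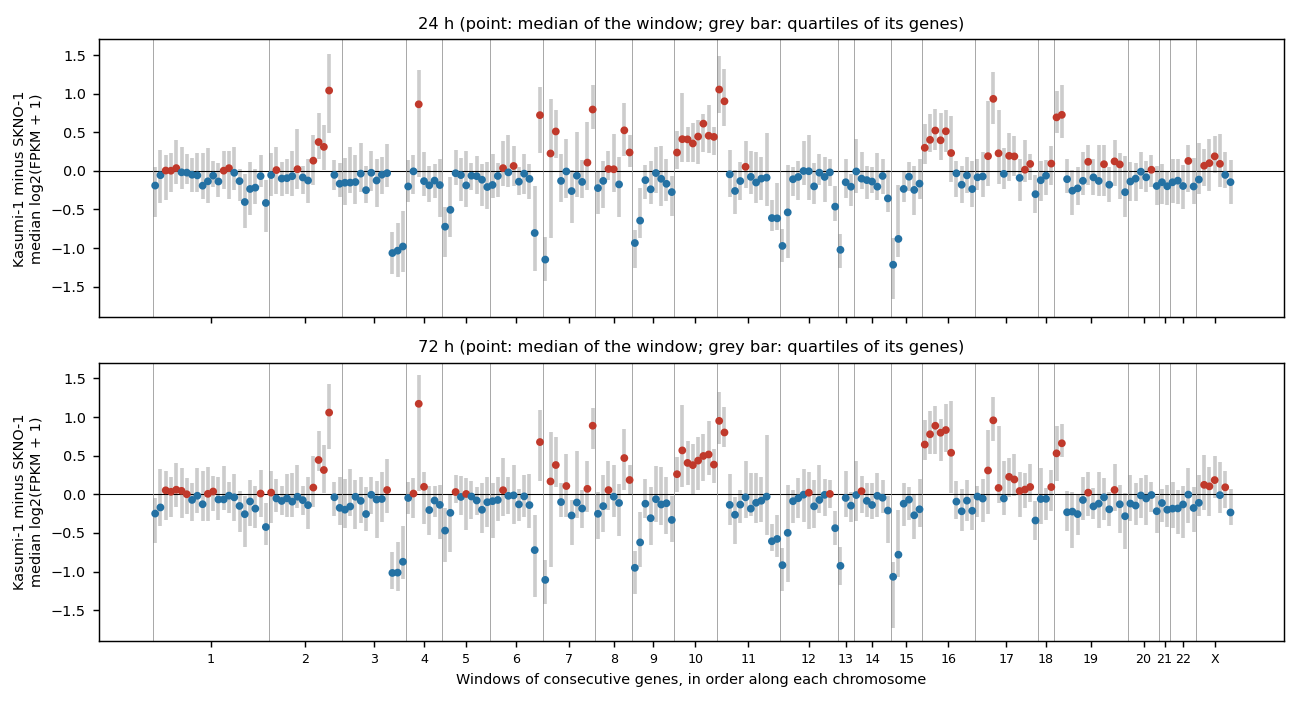
Median difference of each of 205 windows of consecutive genes, in order along chromosomes 1 to 22 and X, at 24 h (upper panel) and 72 h (lower panel), on the log2(FPKM + 1) scale. Most windows lie near 0, and a run of windows on chromosome 3 and single windows on 7, 9, 12, 13 and 15 lie near -1 at both times, while windows on 2, 4, 11 and 17 lie near 1.

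Several genes named above lie in such windows, and so do genes often used as a constant reference. GAPDH lies in the 12p window (chr12:389294-7261869) and differed by -0.79 and -0.89, ACTB lies in the first window of chromosome 7 and differed by -0.62 and -0.62, and B2M lies in a chromosome 15 window with a median of -0.88 at 24 h. Of 28 housekeeping genes, 6 were higher and 11 lower in Kasumi-1 at both times, and 0 reached 2-fold at both times, with medians of 0.071 and -0.052 that changed sign under quantile normalization (-0.088 and 0.038). MTAP and CDKN2A lie in the 9p window, CCND2 and FOXM1 in the 12p window, MEIS2 in the first of chromosome 15 and ZMAT3 in the 3q window at chr3:169804519-184402546, all lower in Kasumi-1, though the 24 h call on CDKN2A was lost in DMSO libraries alone (-0.62, adjusted p = 0.0643). KIT lies in the high window of chromosome 4, IFITM3 and TPP1 in those of 11p and CCL5 in that of 17q. PIM1, CD34, PRG2 and EPCAM differed by several times more than any window's median.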

How the data were processed

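RNA was sequenced in 32 libraries, of which the 16 without an inhibitor are used here, and the line, time and agent of each come from its title. The authors deposited FPKM per gene and library with a table of gene symbols and loci. The submitters' processing notes name TopHat 1.4.1, Cufflinks and hg19, with no role or order for each. Library type and strand are not given in the sources used here, so overlapping genes on opposite strands may share reads. Of 23073 genes, 5628 stood at 0 in all 16 libraries, and 27 genes lacked a value in some of them (54 cells), which were treated as missing. None of 28 housekeeping genes stood at 0 in any library. No read counts were used, so depth is unknown and no counting interval is given. Some deposited values are above 0 but vanishingly small, and the text calls them indistinguishable from 0.

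A gene was tested where 2 or more of the 16 libraries reached 1 FPKM (11570 genes, of which 11567 gave a value). The model was limma (version 3.58.1, R 4.3.3) on log2(FPKM + 1), a pseudocount of 1, with a trend on the mean and 8 means of line, time and agent (8 residual and 5.94 prior degrees of freedom). Tests were 2-sided, adjusted by Benjamini-Hochberg over all tested genes at 0.05. The fit was tested on simulated data. Plots were drawn with matplotlib 3.10.9, and tables made with pandas 2.3.3 and numpy 2.4.6 under Python 3.11.15.

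The comparison, its members and the 33 gene lists (1088 of 1101 entries matched) were chosen with earlier results of these data known. The text names the 14 highest and 14 lowest mean differences among genes called the same way at both times without overlap, up to 4 members of each list, 4 interactions each way and 16 genes followed whatever their values, and gives the values of a part of these. SOCS2, DUSP6, SPRED1, SPRED2, BCL6, SH2B3, EGR1, PBX2, SLC18A2, ELANE, AZU1, CSF3R, IFI6, MX1, IFI44L, CEBPD, IRF7, IRF1, IRF8, GAPDH, ACTB, CDKN2A, PLS3, SNRPN, SLFN11 and XBP1 fall outside that rule and were chosen after their values were seen, as were the windows along chromosomes and the rule for genes of 1 line. The values of a few named genes are not reported here. Promoters were matched by symbol and chromosome. Other settings tried were 4 groups in place of 8, all 32 libraries, a smaller pseudocount (0.1), the median of ratios, quantile normalization, no filter, DMSO libraries alone, a block for replicate number, SKNO-1 at 72 h without the 3 libraries of the separate prefix, and each library left out. Averages over libraries of the same line, time and number were added after seeing the data.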

Additional observations from a re-analysis of the deposited data

Results flagged for a closer look

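In 24 of 508 sets of 4 libraries of the genes named, 1 library lay far from the other 3 by Dixon's test at 95%, which chance flags in about 1 of 20 sets. Values are FPKM, and what set a library apart was not tested. In Kasumi-1 at 24 h the DMSO library numbered 1 had 2.02 for ABCB1 (others 1.5 to 1.58), 8.15 for CDH2 (9.59 to 9.85), 247 for FBL (198 to 205) and 6.19 for SPRED2 (5.37 to 5.46). The GSK690* library numbered 1 had 32.5 for IGF2BP3 (30.4 to 30.6) and 30.8 for TM7SF2 (34.6 to 35.1), and that numbered 2 had 8.37 for CD79B (5.99 to 6.33). In Kasumi-1 at 72 h IFI30 had 1.31 in the GSK690* library numbered 2, where the other 3 had at most 0.0233, and VIM had 0.897 in the same library (others 0.309 to 0.392). Kasumi-1 at 72 h also had 1.46 for BCL6 in the DMSO library numbered 2 (1.94 to 2.03), 7.82 for CSF2RB in the DMSO library numbered 1 (6.76 to 6.84) and 7.07 for ESAM in the GSK690* library numbered 1 (8.53 to 8.71).

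In SKNO-1 at 24 h the GSK690* library numbered 2 had 34.1 for CD79B (38.8 to 39.4) and 4.96 for IFITM3 (5.55 to 5.61), and the DMSO library numbered 1 had 312 for FBL (337 to 338). At 72 h the SKNO-1 DMSO library numbered 1, the single one there without the separate name prefix among DMSO and GSK690* libraries, had 7.91 for IKZF2 (4.47 to 5.0), 1.42 for MNDA (0.834 to 0.903), 1516 for MPO (1771 to 1809) and 32.6 for MTAP (24.4 to 25.6). The SKNO-1 GSK690* library numbered 1 had 86.2 for CD33 (73.5 to 74.4), 0.719 for IL18 (1.04 to 1.10) and 69.8 for KIT (94.7 to 97.7). CSF2RB had 20.1 in the SKNO-1 DMSO library numbered 2 (17.0 to 17.3) and CXCR4 9.22 in the GSK690* library numbered 2 (8.92 to 8.94). The 4 libraries of each line did not overlap for any of these genes at the time given, except MNDA at 72 h, which overlapped with or without that library.

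For 28 genes named here the line difference at 72 h departed from that at 24 h by limma's interaction term with Benjamini-Hochberg adjustment. The departure (72 h minus 24 h, log2 scale) was -2.69 for SLC38A1, -2.61 for MNDA, -2.48 for SULT1C2, -2.47 for NTNG2, -2.42 for PRTN3, -1.80 for ELANE and -0.69 for MPO. It was -1.58 for HLA-B, -1.24 for TRH, -1.23 for CTSG, -0.94 for ESAM and -0.60 for GYPC, all higher in Kasumi-1 at both times and less so at 72 h. It was -1.22 for IGLL1, -0.86 for CTSH, -0.82 for CD79B, -0.78 for IL1B, -0.68 for NFE2, -0.61 for CXCR4, -0.61 for EGR1 and -0.54 for BANK1, all lower in Kasumi-1 at both times and more so at 72 h. Positive values were 1.06 for NAV1, 1.05 for SEZ6L2, 0.95 for SRRM2, 0.91 for EDIL3, 0.50 for ABCC1, 0.48 for SPRED1, 0.45 for HDAC9 and 0.43 for MAN1A1.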

How the results depend on the processing

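The counts called at 24 h, at 72 h, over both times, the same way at both times and at least 2-fold stayed within 1.5 times of 8071, 8260, 9116, 6922 and 1773 under every alternative run. Without each library in turn they ran from 7473 to 8304, 7679 to 8241, 8860 to 9185, 6502 to 6952 and 1746 to 1794. The 563 interactions became 1011 with 4 groups of line and time, 43 with DMSO libraries alone, 111 with averages over libraries of the same number (added after seeing the data) and 216 to 1225 without each library in turn. With a replicate block they became 937. Same-numbered libraries of the 2 lines correlated in their deviations at -0.001, -0.15, 0.41 and 0.086, so the numbers did not establish a pairing across lines. Same-numbered DMSO and GSK690* libraries of a line correlated at 0.14 to 0.49, all above 0. They may therefore share a culture and not be independent, in which case the p-values of the main fit are too small. The block lost none of the 308 gene values given at either time.

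Of those values, 2 changed sign, both small and not called. SRRM2 at 24 h was -0.031 and became 0.042 with the median of ratios and -0.166 to 0.105 without each library in turn, above 0 for 4 of them. It was 0.0268 without the SKNO-1 DMSO library numbered 2, 0.0807 without its GSK690* library numbered 2, 0.105 without the Kasumi-1 DMSO library numbered 1 and 0.0151 without its GSK690* library numbered 1. SULT1C2 at 72 h was -0.046 and became 0.100 without the 3 SKNO-1 libraries of the separate prefix and -0.0993 to 0.00661 without each library in turn, above 0 without the SKNO-1 DMSO library numbered 2. Calls were lost with DMSO libraries alone for AZU1 at 72 h and for CDKN2A, RUNX1 and SPRED2 at 24 h, and with averages over libraries of the same number for RUNX1 at 24 h (adjusted p = 0.0505). Without the 3 libraries of the separate prefix, the lone SKNO-1 library at 72 h is assumed to vary like the other groups. The call on IFI44L at 72 h was gained with a pseudocount of 0.1. Quantile normalization and the median of ratios shifted list and chromosome medians by -0.16 to 0.14, and 35 of 228 moved by more than the spread between libraries. The cause of these changes was not tested. Unknown depth limits what can be said of genes near 0 FPKM, and each line is 1 sample of its kind, so the p-values describe these cultures and not t(8;21) leukaemias at large.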

Other observations

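Genes of other blood lineages were mostly below the filter. Of 26 erythroid genes, 5 were tested, with 3 higher and 2 lower in Kasumi-1 at both times. CA2, a carbonic anhydrase, had 18.1 to 25.6 FPKM in Kasumi-1, against 0 to 0.0455 in SKNO-1 at 24 h. GYPC, a red cell glycophorin, had 158 to 179 in Kasumi-1, against 34.8 to 38.3 in SKNO-1, while the erythroid factor KLF1 had 0.545 to 0.857 in Kasumi-1, against 1.95 to 3.49 in SKNO-1. Of 18 megakaryocyte genes, 5 were tested, with 3 higher and 1 lower. ITGA2B, the platelet integrin chain CD41, had 0.615 to 1.48 FPKM in Kasumi-1, against 16.5 to 20.8 in SKNO-1, and RAB27B, which acts in granule secretion, had 3.17 to 4.19 in Kasumi-1, against 0.103 to 0.341 in SKNO-1. MMRN1, a platelet granule protein, differed by 1.25 at 24 h and 1.55 at 72 h.

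Of 15 tested monocyte and macrophage genes, 7 were higher and 7 lower in Kasumi-1. CD68, a lysosomal protein of macrophages, had 15.7 to 24.3 FPKM in Kasumi-1, against 2.38 to 5.53 in SKNO-1 at 24 h, and MS4A7 had 4.22 to 6.48 in Kasumi-1, against 0.472 to 0.981 in SKNO-1. FCGR2A, an activating IgG receptor, had 2.25 to 3.08 FPKM in Kasumi-1, against 28.5 to 32.8 in SKNO-1, and TYROBP, the adaptor DAP12, had 0.416 to 0.894 in Kasumi-1, against 3.28 to 5.26 in SKNO-1. Of 24 B and plasma cell genes, 9 were tested, with 2 higher and 3 lower. CD79B, a B cell receptor chain, had 5.99 to 8.37 FPKM in Kasumi-1, against 34.1 to 39.4 in SKNO-1, and the B cell adaptor BANK1 differed by -1.16 and -1.70. XBP1, a factor of plasma cells, differed by 0.60 and 0.37. Of 31 T and NK cell genes 4 were tested, with CD8A higher (0.69 and 0.44) and CD7 lower (-0.61 and -1.06) in Kasumi-1. Of 19 markers of adherent cells, EPCAM and the smooth muscle actin ACTA2 were tested, and ACTA2 was lower at both times (-1.01 and -1.32).

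Of 28 cancer-testis and germline genes, 3 were tested, PRAME, LIN28B and SPAG6. SPAG6, a protein of motile cilia and sperm tails, was listed at 0 in all 4 Kasumi-1 libraries at 24 h and had 12.4 to 15 FPKM in SKNO-1. Of 29 tested MYC and ribosome biogenesis genes, 5 were higher and 12 lower in Kasumi-1 (medians -0.17 and -0.28). NOP2, a ribosomal RNA methyltransferase, had 16.6 to 20.6 FPKM in Kasumi-1, against 50.7 to 53.4 in SKNO-1, and FBL, fibrillarin, had 198 to 247 in Kasumi-1, against 312 to 338 in SKNO-1. NOP58, a core protein of box C/D particles beside FBL, was higher, with 106 to 120 in Kasumi-1, against 56.2 to 61.9 in SKNO-1, as was MYCN (1.37 and 0.95).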
